A study of Mus musculus with 4 samples.

Results

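Heat shock proteins and their DnaJ co-chaperones are the cell's general protein-folding machinery. Here 76 of the 24907 genes in the deposited table were taken as members of these families. They were chosen by gene symbol: genes with HSP90, HSP70, HSP110, small heat shock protein, mitochondrial chaperonin and DNAJ symbols. Added to these by name were Cryab, the transcription factor genes Hsf1 and Hsf2, and Bag1 to Bag5. Relatives under other symbols, such as Hyou1, were not included. The choice left out Hspa5, Hsp90b1, Dnajb9 and Dnajc3, which serve the unfolded protein response of the endoplasmic reticulum (ER). Their transcripts were measured by RNA-seq in ASZ001, an adherent cell line from a mouse basal cell carcinoma (BCC). One group carried a doxycycline-inducible vector encoding the transcription factor c-FOS and the other, the control, the same kind of vector without insert. Both groups received doxycycline, and each had 2 libraries. The labels give no c-FOS vector cells without doxycycline, so c-FOS induction and other differences between the vector lines cannot be told apart. They also do not say that replicates came from separate cultures, so p-values measure the spread between these libraries, which may be technical.

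HSP70 proteins bind and release unfolded stretches of client proteins in an ATP-driven cycle. DNAJ proteins deliver clients and switch on the ATPase, while HSP110 and BAG proteins release the nucleotide and reset the cycle. HSP90 finishes the folding of kinases and hormone receptors, small heat shock proteins hold unfolded clients without using ATP, and the chaperonin of Hspd1 and Hspe1 encloses proteins in mitochondria. Under heat or other protein damage, HSF1 binds heat shock elements, which are inverted GAA repeats, and raises many of these genes together. Keratinocytes and carcinoma cells express several of them at high levels without heat.

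The deposited counts summed to between 28405433 and 32465409 per library. Fos had 296.8 and 313 CPM (counts scaled to a common library size) in the c-FOS libraries, against 0.404 and 0.351 CPM in the control libraries. The keratinocyte marker genes Krt5, Krt14, Trp63, Cdh1 and Epcam were present in every library. Their summed level was 8902 and 9249 CPM with c-FOS, against 19203 and 19436 CPM in control. Krt5 (3762 CPM with c-FOS, 11383 CPM in control on average) and Krt14 (4944 CPM with c-FOS, 7137 CPM in control) made up most of it. Both were called lower, as were Trp63 and Cdh1. Epcam, at 129 CPM with c-FOS against 130 CPM in control, did not pass. Of 8 fibroblast markers, summing to 17.7 and 19.2 CPM with c-FOS against 5.45 and 5.68 CPM in control, Thy1 was at 0, and Lum and Col3a1 did not exceed 0.0168 CPM on average. On average Pdgfra had 11.6 CPM with c-FOS against 4.24 CPM in control, and Col1a2 3.45 CPM with c-FOS against 0.539 CPM in control. Pdgfrb averaged 2.69 CPM with c-FOS against 0 in control, and all 3 were called higher. Col1a1, at 0.524 CPM with c-FOS against 0.298 CPM in control, did not pass. Dcn had 0.136 CPM with c-FOS against 0.455 CPM in control and was too low to test. The 8 macrophage and leukocyte markers with a row summed to 32.2 and 33.8 CPM with c-FOS against 12.4 and 10.6 CPM in control, with Cd3e at 0 and Csf1r at 18.4 CPM with c-FOS, against 0.314 CPM in control, on average. Of 4 endothelial markers, summing to 103 and 102 CPM with c-FOS against 83.7 and 80.3 CPM in control, Kdr was at 0. Pecam1, with 101 CPM with c-FOS against 81.3 CPM in control, made up most of that sum, Tek had 1.97 CPM with c-FOS against 0.767 CPM in control, and both were called higher. The 4 melanocyte markers summed to 48.5 and 51.2 CPM with c-FOS against 49.4 and 51.7 CPM in control, with Tyr at 0. Mitf, at 49.4 CPM with c-FOS against 49.8 CPM in control on average, made up nearly all of that sum. Pmel had 0.429 CPM with c-FOS against 0.704 CPM in control, and Dct did not exceed 0.0328 CPM on average. The part of these shifts in the chaperone results was not tested, and in bulk RNA fewer cells of a type and less RNA per cell cannot be told apart.

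Chaperone genes went both ways with c-FOS, and mostly by small amounts. Of the 76 genes, 7 were at 0 in all libraries (Hspa12b, Hspb3, Hspb7, Hspb9, Dnajb7, Dnajb8 and Dnajc5g), 3 more (Dnajb13, Dnajc6 and Dnajc22) were too low to test, and 66 were tested. Of these, 25 were higher, 22 were lower and 19 did not pass (threshold 0.05 on p-values from edgeR's quasi-likelihood test, adjusted by Benjamini-Hochberg over all genes). The 47 that passed are 71.2% of those tested, near the 67.1% of all 12791 genes tested. By direction, 37.9% were higher and 33.3% lower, where 33.8% of all genes were higher and 33.3% lower. The c-FOS and control libraries did not overlap for 58 of the 66 genes (87.9%), against 83.6% of all genes. The median log2 fold change was 0.06 over the chaperone genes and -0.01 over all genes, and the median size of change was 0.24 and 0.32 on the log2 scale. A change of at least 0.5 on the log2 scale was reached by 15 genes that passed (22.7%), against 32.1% of all genes. Only 4 genes (6.06%) passed with a change of 2-fold or more, where 15.4% of all genes did: Cryab rose, and Dnajc9, Dnajc5b and Hspa12a fell. The number lower was 14 without c-FOS replicate 2. With library totals in place of TMM scaling factors, 13 genes were higher and 31 lower, and the median over all genes moved to -0.14 on the log2 scale. Of the 47, 26 passed in the same direction under all 12 alternative settings run, 13 higher and 13 lower.

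**Figure D1:**
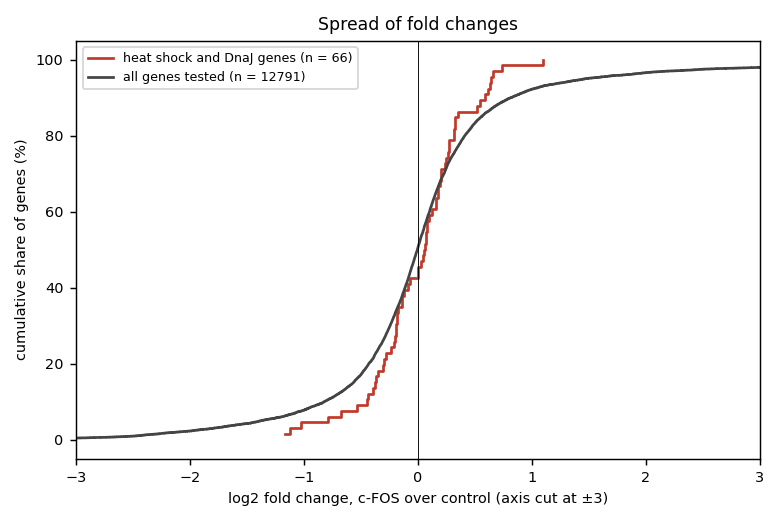
Cumulative share of genes (vertical axis, percent) by log2 fold change of c-FOS over control (horizontal axis, cut at ±3) for the 66 heat shock and DnaJ genes tested and for all 12791 genes tested. The chaperone curve is steeper: its values run from -1.17 to 1.09, and its centre lies near 0.

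The transcription factors of the heat shock response did not pass. Hsf1, the main heat-activated factor, had 62.5 and 60.6 CPM in the c-FOS libraries and 63.4 and 59.9 CPM in the control libraries. The groups overlapped, and the 95% interval of the log2 fold change was -0.11 to 0.10. Hsf2, a second factor that binds the same elements, had 36.3 and 37.7 CPM with c-FOS against 38.4 and 39.5 CPM in control. Its groups did not overlap, with c-FOS below control, and the interval was -0.20 to 0.05. Both passed as lower with library totals, at log2 fold changes of -0.14 for Hsf1 and -0.21 for Hsf2, where the median of all genes was also -0.14, and Hsf2 also with upper-quartile factors (-0.14, adjusted p = 0.0450). HSF1 is mainly regulated as a protein, by release from chaperones, trimer formation and phosphorylation, which transcript counts do not show. Of the other genes of this list, Hsbp1, whose product binds HSF1 and damps it, rose to 141 ± 1.88 CPM with c-FOS, against 111 ± 0.748 CPM in control (SD, n = 2 each), while Hsf3, Hsf4, Hsf5 and Hsfy2 were not detected or too low to test.

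Of 13 members listed as heat-inducible, 5 rose (38.5%, against 33.8% of all genes) and 7 fell (53.8%, against 33.3% of all genes). Hsp90aa1 did not pass. The list also holds Hspa8, among those that rose, and Hsp90ab1, among those that fell, which are described below as constitutive. The median log2 fold change of the 13 was -0.23, the value of Hsp90ab1. Cryab, Bag3 and Dnaja1 rose and Dnajb1, Hspe1, Hspd1, Hspb1, Hsph1, Hspa1b and Hsp90ab1 fell in every alternative setting. The calls of Hspa1a and Hspa8 as higher were each lost in several settings, and Hspa8 was at -0.02 with library totals. The number higher was 3 without c-FOS replicate 1, in DESeq2, and with library totals or upper-quartile factors.

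Sequences upstream of the transcription start show where heat shock elements stand in genes of either direction. RefSeq promoter windows (build GRCm38.p6) of the 250 bases before each start were found for 59 of the 76 genes, 77 windows in all. The pair of inverted repeats GAANNTTC or TTCNNGAA, which reads the same on both strands, was in 20.8% of these windows and in 12.8% of all 32851 windows. It was in 29.6% of the 27 windows of genes that rose and in 29.2% of the 24 windows of genes that fell. It was in 0 of the 16 windows of tested genes that did not pass. These are counts of windows, not of separate sites: Dnajb6 and Hsph1 each have overlapping windows with the same site, and Hspd1 and Hspe1 share theirs. Only this exact spelling was sought, and it was absent from the windows of Dnajb1 and Bag3, both listed as heat-inducible. Genes without a window were not searched, and the shares given here do not cover them. They were Hsf1, Hsp90aa1, Hsp90ab1, Hspa8, Hspa9, Hspa13, Cryab, Hspb2 and Bag4. The DNAJC genes Dnajc2, Dnajc5, Dnajc5b, Dnajc11, Dnajc12, Dnajc18, Dnajc22 and Dnajc30 also had no window. Windows with 3 such repeats in a row, GAA and TTC in turn and 2 bases apart, which contain the pair and overlap it, made up 5.19% of the chaperone windows and 0.466% of all windows. These 4 chaperone windows cover only 2 distinct stretches, since 2 are overlapping windows of Dnajb6 with the same site and the others are those of Hspd1 and Hspe1, which share theirs. The AP-1 motif TGANTCA, the kind of element that FOS and JUN dimers bind, was in 1.3% of the chaperone windows, against 6.75% of all windows, and the 1 window that held it was that of Bag3. A match is a description of the letters and not a binding site, and several genes have more than 1 window. The sequences below are the windows of Bag3 and of 3 genes with heat shock elements, of which Dnajb6 rose and Hspb1 and Hspa1b fell, and for Hspe1, which also fell, only the 215 bases of its window that lie between its start and that of Hspd1. Capitals mark TGANTCA in Bag3 and the inverted repeats in the others.
Bag3, chr7:128523333-128523582, plus strand: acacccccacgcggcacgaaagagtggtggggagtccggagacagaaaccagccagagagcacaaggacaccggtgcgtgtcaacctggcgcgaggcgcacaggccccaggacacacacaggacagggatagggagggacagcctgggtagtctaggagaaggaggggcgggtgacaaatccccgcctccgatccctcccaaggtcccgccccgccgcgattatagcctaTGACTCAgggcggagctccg
Dnajb6, chr5:29735648-29735897, plus strand: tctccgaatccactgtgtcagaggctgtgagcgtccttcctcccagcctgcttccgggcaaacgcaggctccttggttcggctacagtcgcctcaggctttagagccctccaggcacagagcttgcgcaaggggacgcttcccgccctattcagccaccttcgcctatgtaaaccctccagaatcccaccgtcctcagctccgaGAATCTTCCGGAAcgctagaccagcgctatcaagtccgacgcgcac
Hspe1, chr1:55087933-55088147, plus strand: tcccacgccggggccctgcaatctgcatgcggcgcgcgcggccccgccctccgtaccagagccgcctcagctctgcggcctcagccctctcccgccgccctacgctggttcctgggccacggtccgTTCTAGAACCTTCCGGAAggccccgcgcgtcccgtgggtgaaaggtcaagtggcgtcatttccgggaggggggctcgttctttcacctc
Hspb1, chr5:135887669-135887918, plus strand: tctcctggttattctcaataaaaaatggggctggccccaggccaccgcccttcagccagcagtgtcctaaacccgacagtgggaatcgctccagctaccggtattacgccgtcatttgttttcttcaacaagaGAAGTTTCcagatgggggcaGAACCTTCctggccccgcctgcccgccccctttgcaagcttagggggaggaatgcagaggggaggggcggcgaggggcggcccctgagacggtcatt
Hspa1b, chr17:34959239-34959488, minus strand: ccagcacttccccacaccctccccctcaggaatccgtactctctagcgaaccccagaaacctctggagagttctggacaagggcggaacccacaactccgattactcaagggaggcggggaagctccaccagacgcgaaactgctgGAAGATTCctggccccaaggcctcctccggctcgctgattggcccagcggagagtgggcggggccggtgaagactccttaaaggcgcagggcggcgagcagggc

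**Figure D2:**
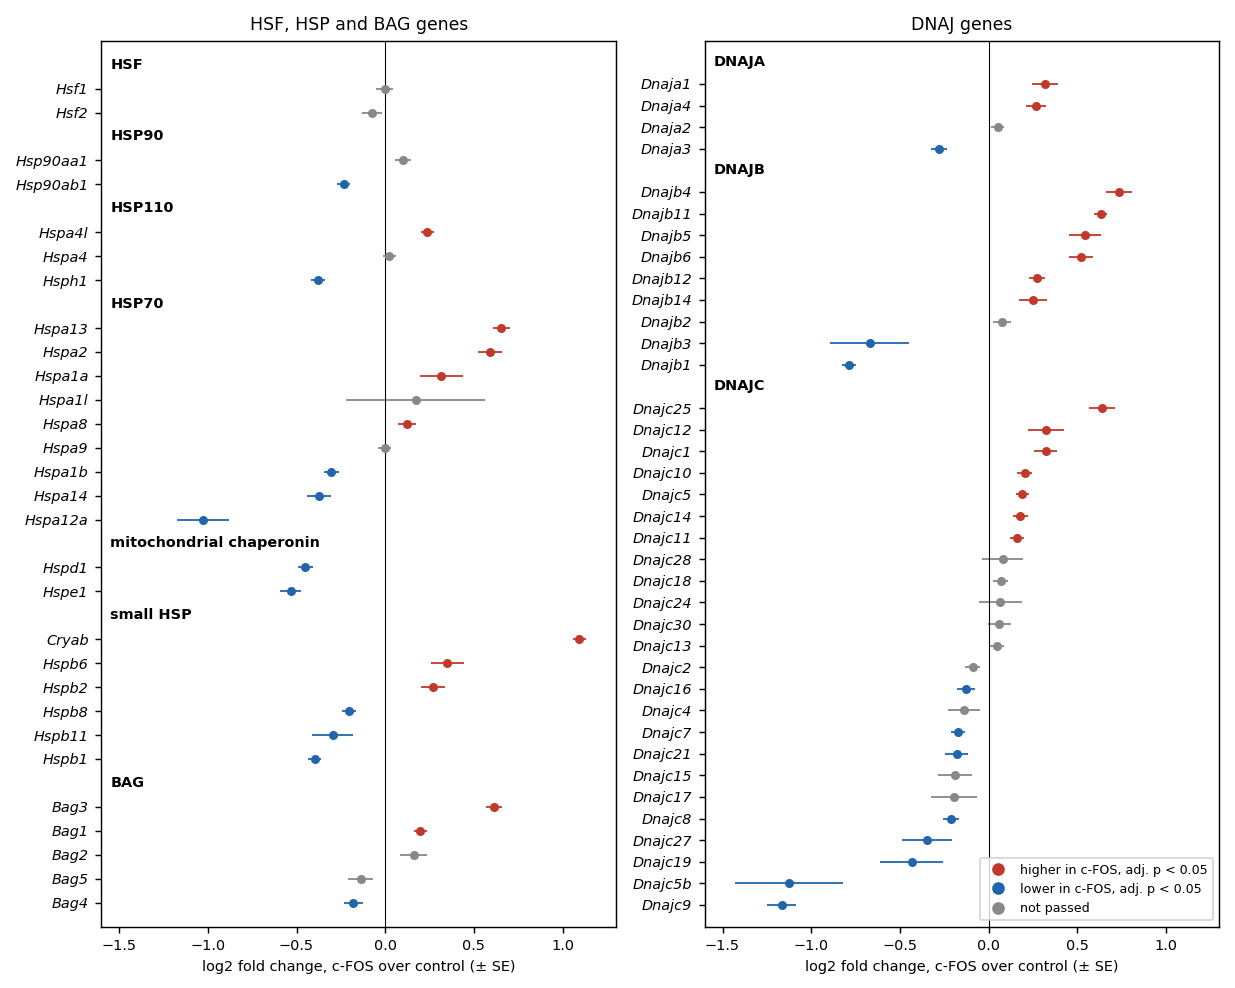
Log2 fold change of c-FOS over control (horizontal axis, points, with bars of ± SE) for the 66 genes tested, grouped by class; colours mark genes that passed an adjusted p of 0.05 as higher or lower and genes that did not pass. Most classes hold genes on both sides of 0; the mitochondrial chaperonin pair Hspd1 and Hspe1 lies wholly below it, and Cryab is the highest at 1.09.

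HSP90 made up the largest class of chaperone transcript when the deposited counts were divided by gene length. The size of a class depends on how reads that match several places were counted, which the sources used here do not say. Hsp90ab1, the constitutive cytosolic HSP90, fell by 0.23 ± 0.04 (SE) on the log2 scale (adjusted p = 5.85e-05), with 2373 and 2341 CPM in the c-FOS libraries, against 2798 and 2749 CPM in the control libraries. Both c-FOS libraries were below both control libraries. Per length, it was the most abundant of the 76 genes in both groups, at 945 RPKM (CPM per kilobase of gene length) with c-FOS and 1112 RPKM in control on average. It took 25.8% and 25.6% of the summed chaperone RPKM in the c-FOS libraries and 30.03% and 29.6% in the control libraries. Its heat-inducible partner Hsp90aa1 had 138.2 and 138.5 CPM with c-FOS against 123 and 136 CPM in control and did not pass (0.10, 95% interval -0.00217 to 0.20). The c-FOS values of Hsp90aa1 lay above both control values, and the gene passed as higher without control replicate 2 (0.17, adjusted p = 2.42e-05).

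The co-chaperones of HSP90 also split. Of 17 listed genes outside the families, 7 rose (41.2%, against 33.8% of all genes) and 8 fell (47.1%, against 33.3% of all genes). The other 2 missed the threshold, and with library totals 2 rose and 9 fell. Fkbp4 encodes the immunophilin FKBP52 of steroid receptor complexes. It fell to 249 ± 0.146 CPM with c-FOS, against 389 ± 0.155 CPM in control (SD, n = 2 each). An SD of 2 libraries can be far too small, and the fit gave a log2 fold change of -0.65 ± 0.04 (SE). Ppp5c, a protein phosphatase that docks on HSP90, fell by 0.40 and Ptges3, which encodes the p23 co-chaperone, fell by 0.30 on the log2 scale. Without c-FOS replicate 2, 5 of the 17 were lower.

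The HSP70 class had 4 genes higher and 3 lower of the 9 tested (44.4% and 33.3%, against 33.8% and 33.3% of all genes). Hspa13, an HSP70 relative attached to ER membranes, had 85.5 and 85.3 CPM with c-FOS against 52.2 and 56.3 CPM in control, a rise of 0.65 ± 0.05 (SE) on the log2 scale (adjusted p = 2.72e-08). Hspa2, an HSP70 best known from testis, had 42.8 and 41.8 CPM with c-FOS against 29.6 and 26.6 CPM in control and rose by 0.59 ± 0.07. For both genes the groups were well apart. Hspa12a, a distant relative, had 2.55 and 3.23 CPM with c-FOS against 5.99 and 5.88 CPM in control and fell by 1.03 ± 0.15. Hspa14, a ribosome-associated HSP70, fell by 0.37 ± 0.07. Hspa9, the mitochondrial HSP70, had 505 and 499 CPM with c-FOS against 494 and 512 CPM in control, and its overlapping groups gave a 95% interval of -0.08 to 0.08 on the log2 scale. With library totals Hspa9 passed as lower (-0.14, adjusted p = 0.00337).

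The heat-inducible HSP70 copies Hspa1a and Hspa1b are nearly identical, so their counts are uncertain. Of the 50-base stretches in the annotated transcripts, 66.3% of those of Hspa1a and 62.3% of those of Hspa1b occur in another gene, in each case most often in the other copy. Their RefSeq windows differ at 3 of 250 positions. Hspa1b had 231 and 235 CPM with c-FOS against 299 and 277 CPM in control and fell by 0.30 ± 0.04 (adjusted p = 1.86e-05). Hspa1a was far lower, with 9.60 and 9.07 CPM in the c-FOS libraries against 8.44 and 6.58 CPM in the control libraries, and was called higher (0.32 ± 0.12, adjusted p = 0.0332). That call was lost without c-FOS replicate 1 (0.28), without c-FOS replicate 2 (0.36), without control replicate 2 (0.14), in DESeq2 and under library totals and upper-quartile factors, and the value was 0.50 without control replicate 1. Over the alternatives the adjusted p of Hspa1a lay between 0.000248 and 0.285. Summed, the 2 copies had 240.4 and 244 CPM with c-FOS, below the 307 and 283 CPM of the control libraries. The third gene of the cluster, Hspa1l, stayed under 0.5 CPM in each library and did not pass.

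Hspa8, the constitutive HSP70 of the cytosol, had 99.6 and 93.0 CPM with c-FOS against 84.9 and 92.0 CPM in control, and the groups did not overlap. Its call as higher was marginal (0.12 ± 0.05, adjusted p = 0.0434). It was lost without c-FOS replicate 1 (0.08, adjusted p = 0.369) and without control replicate 1 (0.07, adjusted p = 0.162), and the adjusted p ranged from 7.49e-05 to 0.800 over the alternatives. Hspa8 shares 39.4% of its 50-base stretches with other genes, among them 12 pseudogenes, and Hsp90aa1 shares 47.5%, with 4 pseudogenes. The sources used here do not say how reads that match several places were counted, so the levels of these genes are uncertain.

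Of the HSP110 genes, which exchange the nucleotide of HSP70, Hsph1 fell and Hspa4l rose. Hsph1, the heat-inducible one, had 185 and 177 CPM with c-FOS against 231 and 241 CPM in control, a fall of 0.38 ± 0.04 on the log2 scale (adjusted p = 1.33e-06). Hspa4l had 320.3 and 327 CPM with c-FOS against 278 and 271 CPM in control and rose by 0.24 ± 0.04. The most abundant of the class, Hspa4, had 614 and 614 CPM with c-FOS against 599 and 609 CPM in control and did not pass (0.02, 95% interval -0.05 to 0.10), and it was called lower with library totals (-0.11, adjusted p = 0.00980).

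**Figure D3:**
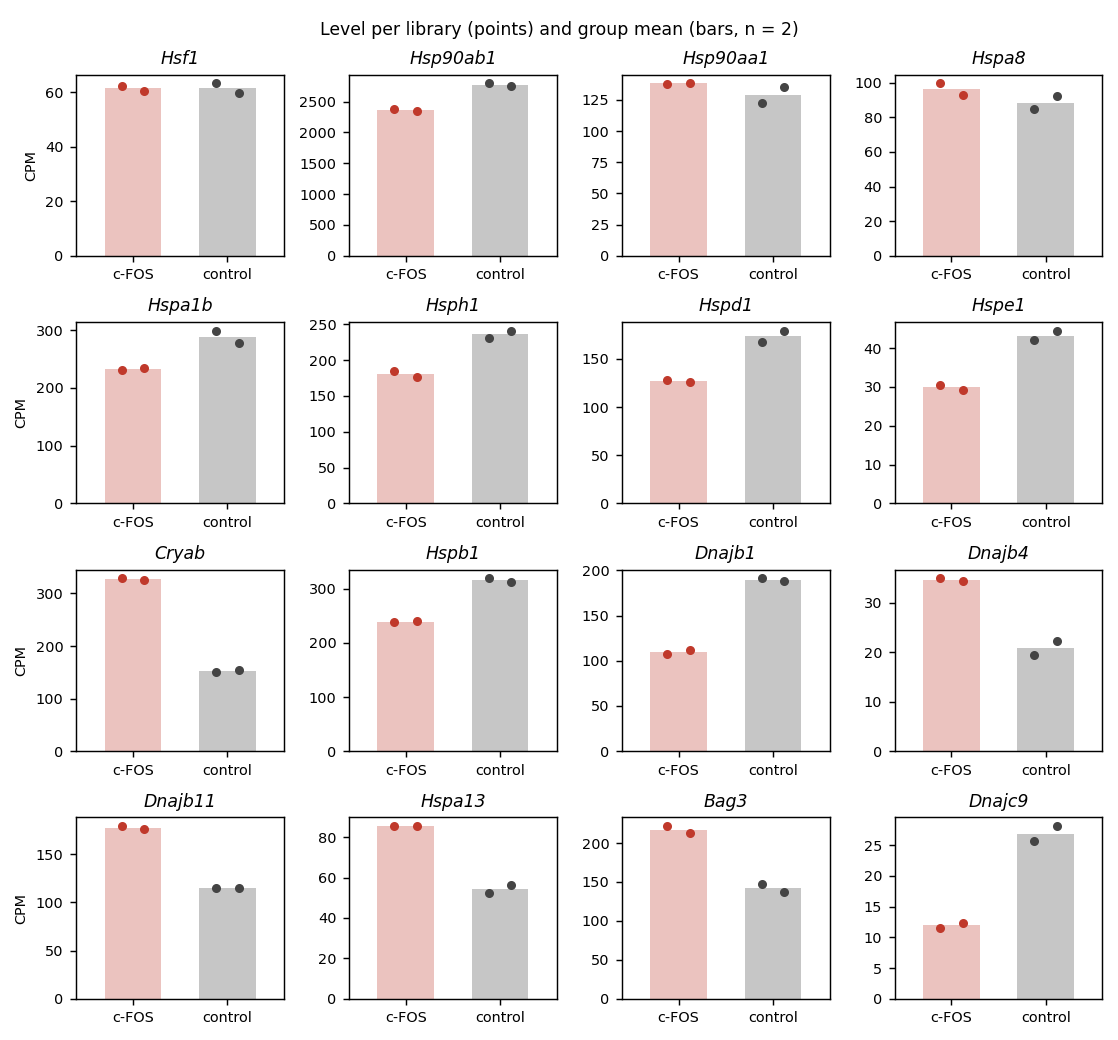
CPM (vertical axes, each starting at 0) of 16 chaperone genes in each library (points) with group means (bars, n = 2), c-FOS in red and control in grey. Cryab, Dnajb4, Dnajb11, Hspa13 and Bag3 stand higher and Dnajb1, Dnajc9, Hspd1, Hspe1, Hspb1, Hsph1, Hspa1b and Hsp90ab1 lower in both c-FOS libraries, while the points of Hsf1 overlap.

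Both genes of the mitochondrial chaperonin fell. Hspd1, the barrel subunit HSP60, had 128 and 126 CPM with c-FOS against 168 and 179 CPM in control, a fall of 0.45 ± 0.04 (adjusted p = 4.30e-07). Hspe1, its lid HSP10, had 30.6 and 29.2 CPM with c-FOS against 42.0 and 44.5 CPM in control, a fall of 0.53 ± 0.06 (adjusted p = 2.79e-06). The 2 genes lie head to head. Their windows overlap, and both cover the element printed above. Hspd1 shares 42.1% and Hspe1 22.8% of their 50-base stretches with other genes, of which 9 of 10 for Hspd1 and 5 of 7 for Hspe1 are pseudogenes.

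Members known to work in mitochondria and in the ER, 2 groups drawn up from textbook location after the values were seen, can be set side by side. Of 8 mitochondrial genes, 1 was higher, 4 were lower and 3 missed the threshold, and their median log2 fold change was -0.24. Besides Hspd1 and Hspe1, Dnaja3, the mitochondrial partner of Hspa9, fell by 0.28 ± 0.05, and Dnajc19, a subunit of the protein import motor, fell by 0.43 ± 0.18. The call of Dnajc19 was marginal (adjusted p = 0.0436) and was lost without c-FOS replicate 1 (-0.42, adjusted p = 0.158), without c-FOS replicate 2 (-0.45, adjusted p = 0.145) and without control replicate 1 (-0.33, adjusted p = 0.190), within a range of 0.0105 to 0.256. Dnajc11, of the inner membrane organising complex, rose by 0.16 ± 0.04, but not without c-FOS replicate 2 (0.15, adjusted p = 0.0512, within a range of 4.29e-05 to 0.665). Of 10 ER genes, 8 were higher, 1 (Dnajc16) was lower and 1 missed the threshold, and their median was 0.26. Of all genes tested, 33.8% were higher and 33.3% lower, and since both groups were drawn up with the values known, their counts are a description only. With library totals the counts were 0 higher and 6 lower in mitochondria, and 5 higher and 1 lower in the ER. The 12 ER chaperone genes of the companion list, among them the 4 that the choice by symbol left out, all rose. Hspa5, which encodes BiP, had 918 ± 39.7 CPM with c-FOS and 559 ± 36.2 CPM in control, and Dnajb9 had 33.2 ± 1.90 CPM with c-FOS and 17.3 ± 0.330 CPM in control (SD, n = 2 each). Sil1, an exchange factor for BiP, rose by 0.54 on the log2 scale. With library totals 10 of the 12 passed as higher. No companion list of mitochondrial genes was drawn up. Grpel1 and Grpel2, mitochondrial exchange factors for Hspa9 on another companion list, went against the direction of most of the mitochondrial members. They rose by 0.30 and 0.29 on the log2 scale.

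Of the 6 small heat shock genes tested, 3 were higher and 3 lower (50% each, against 33.8% and 33.3% of all genes). Those lower include Hspb11, a component of intraflagellar transport despite its name. With library totals 1 was higher and 3 lower. Cryab, which encodes alphaB-crystallin, had 329 and 325 CPM in the c-FOS libraries against 151 and 155 CPM in the control libraries. It rose by 1.09 ± 0.04 (SE) on the log2 scale, or 2.13-fold (adjusted p = 7.66e-12), the highest fold change of the 66 genes, and lay between 0.96 and 1.11 over the alternatives. Its neighbour Hspb2, whose start lies close by on the other strand, rose by 0.27 ± 0.07, and Hspb2 shares 24.4% of its 50-base stretches with Cryab. Without strand information the reads of overlapping parts cannot be told apart. Hspb6 rose by 0.35 ± 0.09. Neither Hspb2 nor Hspb6 passed with library totals. Hspb1, which encodes HSP25, a keratinocyte chaperone, had 239 and 239.8 CPM with c-FOS against 319 and 312 CPM in control, a fall of 0.40 ± 0.04 (adjusted p = 2.70e-07). Hspb8, which forms a complex with BAG3, had 196 and 198 CPM with c-FOS against 233 and 221 CPM in control and fell by 0.21 ± 0.04.

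The order of the most abundant small heat shock genes per length differed between the groups. Cryab averaged 337 RPKM and Hspb1 266 RPKM with c-FOS, whereas Cryab averaged 158 RPKM and Hspb1 351 RPKM in control, and both libraries of each group showed that order. Of the 50-base stretches of Hspb1, 50.1% occur in other genes, mainly in a processed pseudogene, so its level is uncertain. Hspb11, a component of intraflagellar transport despite its name, was called lower (-0.30, adjusted p = 0.0342), but not without c-FOS replicate 2 (-0.22) or without control replicate 2 (-0.17), and its adjusted p ranged from 0.00188 to 0.245. For the 7 genes listed at 0, among them Hspb3, Hspb7 and Hspb9, a count of 0 allows up to 0.0958 to 0.108 CPM per library, at 3 counts and for counting error only.

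Among the 9 DNAJB genes tested, 6 were higher (66.7%, against 33.8% of all genes) and 2 lower (22.2%, against 33.3% of all genes), and the median was 0.27 on the log2 scale (0.13 with library totals, where 5 were higher). Dnajb4, an HSP70 partner of the same type as Dnajb1, had 34.9 and 34.5 CPM with c-FOS against 19.5 and 22.2 CPM in control and rose by 0.73 ± 0.07 (adjusted p = 8.52e-07). Dnajb11, an ER protein that works with BiP, had 179 and 176 CPM with c-FOS against 115 and 115 CPM in control and rose by 0.63 ± 0.04 (adjusted p = 3.66e-09). Both c-FOS values were above both control values for each of these genes. Dnajb5 had 14.6 and 15.5 CPM with c-FOS against 10.9 and 9.84 CPM in control and rose by 0.54 ± 0.09. Dnajb6, which suppresses protein aggregation, rose to 41.9 and 41.5 CPM with c-FOS, against 30.8 and 27.3 CPM in control, and 21.0% of its 50-base stretches occur in other genes.

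The ER membrane proteins Dnajb12 and Dnajb14 rose by 0.27 ± 0.05 and 0.25 ± 0.08 on the log2 scale, the second not without c-FOS replicate 1 (0.18, adjusted p = 0.145, within a range of 0.000122 to 0.217). Dnajb2, a J protein best known from neurons, did not pass (0.07), but passed as higher without control replicate 1 (0.15, adjusted p = 0.00120). Dnajb1, the main heat-inducible J protein of HSP70, went the other way. It had 107 and 112 CPM with c-FOS against 191 and 188 CPM in control, a fall of 0.79 ± 0.04 (adjusted p = 5.33e-10). Dnajb3 had 1.04 and 1.13 CPM with c-FOS against 1.68 and 1.79 CPM in control and was called lower (-0.67, adjusted p = 0.0165), but not without c-FOS replicate 1 (-0.61), without c-FOS replicate 2 (-0.73), without control replicate 2 (-0.62) or in DESeq2, within an adjusted p of 0.00524 to 0.174.

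Of the 4 DNAJA genes, 2 rose, 1 fell and 1 did not pass, where 33.8% of all genes were higher and 33.3% lower. Dnaja1, a heat-inducible partner of Hspa8, had 66.4 and 75.0 CPM with c-FOS against 51.6 and 61.9 CPM in control. It rose by 0.32 ± 0.08 (adjusted p = 0.00195), and by 0.20 without control replicate 1. The groups did not overlap, but the lower c-FOS value was closer to the higher control value than to the other c-FOS value. Dnaja1 shares 20.6% and Dnaja4 42.7% of their 50-base stretches with other genes. Dnaja4 rose by 0.27 ± 0.06, but not with library totals (0.13, adjusted p = 0.0573). Dnaja2, the most abundant of the class, had 276 and 284 CPM with c-FOS against 267 and 275 CPM in control and did not pass (95% interval -0.03 to 0.13), but passed as higher without control replicate 2 (0.07, adjusted p = 0.0388).

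DNAJC genes are a mixed class whose members share little beyond the J domain. Among the 24 tested, 7 were higher (29.2%) and 8 lower (33.3%), near the 33.8% and 33.3% of all genes. With library totals 2 were higher and 12 lower. Dnajc9, a co-chaperone of histones that is made in proliferating cells, had the largest fall of the 66 genes. It had 11.5 and 12.4 CPM with c-FOS against 25.7 and 28.1 CPM in control, a fall of 1.17 ± 0.08 (adjusted p = 2.12e-08). Dnajc25, a membrane protein, had 34.2 and 32.6 CPM with c-FOS against 20.2 and 22.7 CPM in control and rose by 0.64 ± 0.07. The ER proteins Dnajc1 and Dnajc10 rose by 0.32 ± 0.06 and 0.20 ± 0.04. Dnajc10 did not pass with library totals (0.06).

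Dnajc5, the cysteine string protein of secretory vesicles and the most abundant DNAJC gene in CPM, had 289 and 293 CPM with c-FOS against 257 and 253 CPM in control and rose by 0.19 ± 0.04, but not with library totals (0.05). Its low-level relative Dnajc5b had 0.575 and 0.420 CPM with c-FOS against 1.11 and 1.05 CPM in control and fell by 1.12 ± 0.30 (adjusted p = 0.00482). That call was lost without c-FOS replicate 2 (-0.90, adjusted p = 0.0882) and in DESeq2, and its adjusted p ranged from 0.00205 to 0.0883. Dnajc8, a splicing-related protein, fell by 0.21 ± 0.04. Dnajc7, which binds HSP70 and HSP90 through its repeats, fell by 0.17 ± 0.04, but not without c-FOS replicate 2 (-0.14, adjusted p = 0.0714, within a range of 1.05e-06 to 0.0714). The 9 DNAJC genes that did not pass (Dnajc2, Dnajc4, Dnajc13, Dnajc15, Dnajc17, Dnajc18, Dnajc24, Dnajc28 and Dnajc30) had log2 fold changes between -0.19 and 0.08. Of these, Dnajc2 passed as lower without control replicate 1 (-0.11, adjusted p = 0.00951) and Dnajc4 without control replicate 2 (-0.21, adjusted p = 0.0360). Dnajc12, Dnajc14, Dnajc16, Dnajc21 and Dnajc27 also passed, at log2 fold changes of 0.32, 0.18, -0.13, -0.18 and -0.35, and each lost its call in at least 1 alternative. Dnajc12 lost it without c-FOS replicate 2 (0.32), Dnajc16 (-0.12) and Dnajc21 (-0.18 and -0.17) without either c-FOS library, Dnajc16 also without control replicate 1 (-0.09), Dnajc21 also without control replicate 2 (-0.12), and Dnajc27 without c-FOS replicate 1 (-0.23) or control replicate 1 (-0.20).

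Among the BAG genes, which encode nucleotide exchange factors of HSP70, Bag3 rose most. Bag3 links HSP70 and small heat shock proteins to autophagy. It had 222 and 213 CPM with c-FOS against 148 and 137 CPM in control, a rise of 0.61 ± 0.04 (adjusted p = 2.40e-08). Bag1 rose by 0.20 ± 0.04, but had 0.06 with library totals and did not pass there (adjusted p = 0.155). Bag4 was called lower (-0.18, adjusted p = 0.00850), and the call was lost without c-FOS replicate 1 or 2 (both -0.18) and without control replicate 2 (-0.11), with an adjusted p of up to 0.0684. Bag2 (0.16) and Bag5 (-0.14) did not pass, and Bag2 passed as higher without control replicate 2 (0.22, adjusted p = 0.0149).

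Per length, the 5 classes whose shares of the chaperone transcript pool differed most between the groups are given first. HSP90 took 27.1% and 26.9% of the summed RPKM in the c-FOS libraries, against 31.2% and 30.8% in the control libraries. Small heat shock proteins took 20.8% and 20.9% with c-FOS, against 18.4% and 18.2% in control. Within them Cryab was higher, at 9.19% and 9.16% with c-FOS against 4.18% and 4.29% in control, whereas Hspb1 was lower, at 7.20% and 7.28% with c-FOS against 9.52% and 9.32% in control, so that the higher share of the class rests on Cryab. BAG genes took 6.98% and 6.89% with c-FOS, against 5.66% and 5.57% in control, and the mitochondrial chaperonin took 2.59% and 2.52% with c-FOS, against 3.41% and 3.64% in control. DNAJB genes took 6.48% and 6.51% with c-FOS, against 5.81% and 5.71% in control. With smaller gaps, HSP110 took 7.51% and 7.54% with c-FOS, against 7.36% and 7.46% in control. DNAJA genes took 4.20% and 4.35% with c-FOS, against 4.01% and 4.17% in control. DNAJC genes took 13.76% and 13.83% with c-FOS, against 13.50% and 13.72% in control. The shares of the HSF and HSP70 classes overlapped between the groups. HSP70 took 9.54% and 9.47% with c-FOS, against 9.52% and 9.58% in control. Summed over the 76 genes, the level was 8713 and 8686 CPM with c-FOS, against 8904 and 8893 CPM in control. As a share of all deposited counts, without scaling factors, the 76 genes took 0.830% and 0.829% with c-FOS, against 0.932% and 0.934% in control. These sums are descriptions and carry no test. The size of each class also depends on how reads that match several places were counted, as for Hspa8, Hsp90aa1, Hspa1a and Hspa1b.

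**Figure D4:**
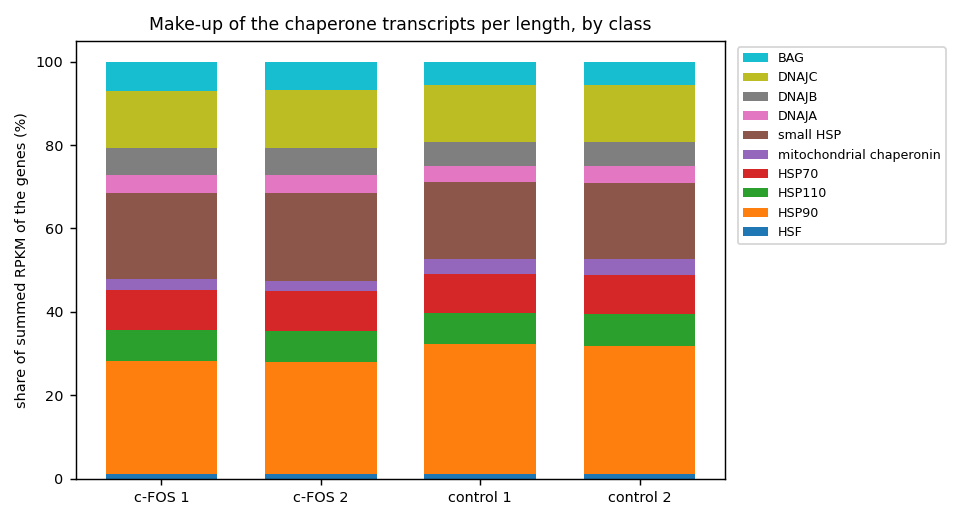
Share of each class (stacked, vertical axis in percent) in the summed RPKM of the 76 genes in each of the 4 libraries. HSP90 takes 27.1% and 26.9% in the c-FOS libraries, against 31.2% and 30.8% in the control libraries. Class sizes depend on how reads that match several places were counted.

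Further groups of folding genes were read from the same test, in which 33.8% of all genes were higher and 33.3% lower. Of 8 tested genes of the TRiC/CCT chaperonin, which folds actin and tubulin, 3 fell (Cct4 by 0.20, Tcp1 by 0.14 and Cct2 by 0.10 on the log2 scale) and 5 did not pass. All 8 passed as lower with library totals. Leaving out either c-FOS library left 1 lower, and 1 passed as higher without control replicate 2. Of 6 prefoldin genes, which hand clients to TRiC, Pfdn1 rose by 0.13 and 5 did not pass, and with library totals 0 were higher and 2 lower. The count was 0 higher without c-FOS replicate 1 and 2 higher without control replicate 2. Of 9 HSP70 co-chaperones without a J domain, 4 rose and 5 did not pass, and 5 passed as lower with library totals. Sgtb, a tetratricopeptide adaptor of HSP70, rose by 0.62, and Grpel1 and Grpel2, the mitochondrial exchange factors for Hspa9, rose by 0.30 and 0.29.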

How the data were processed

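The authors deposited unnormalized expected counts per gene symbol, in steps of 0.5, with 1 gene length per row. Per the labels and the series design text, TopHat and then Homer were used, at the level of transcript isoforms. The submitters' processing notes name mm9 and list DESeq2. The sources used here do not state versions, annotation or strand setting. Of 24909 rows, 2 repeated a symbol, and the row with the higher total was kept. Counts were rounded to whole numbers (a fraction of 0.5 upward) and tested with edgeR 4.0.16 (R 4.3.3): TMM factors, filterByExpr (minimum count 10, total 15), a two-sided quasi-likelihood test of the 2 groups with no covariate, and Benjamini-Hochberg adjustment at 0.05 over 12791 genes. CPM and RPKM use TMM library sizes and the deposited length. Errors are SD over n = 2, or SE from the F statistic for log2 fold changes. The script was tested on simulated data. Replicates differed beyond sampling noise (chi-square per degree of freedom 1.94 with c-FOS, 4.84 in control). Alternatives were RLE, upper-quartile and no scaling factors, other filters, unrounded counts, DESeq2 1.42.0, a replicate block and each library left out. Shared sequence was measured as 50-base stretches of GENCODE M21 transcripts found in other genes. Genes were named if they passed with a log2 change of 0.5 or more or were among the 10 most abundant. Hsf1, Hsf2 and the 13 genes listed as heat-inducible were named too, as were up to 3 genes that changed most from each companion list. Others were added after their values were seen. The members and lists were chosen with earlier results of these data known.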

Additional observations from a re-analysis of the deposited data

How the results depend on the processing

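As reported, 25 heat shock and DnaJ genes were higher and 22 lower. Of 12 alternatives, library totals changed the most member calls: 13 were higher and 31 lower and their median log2 fold change was -0.0821, and with upper-quartile factors it was -0.00732, against 0.06 with TMM; the median of all genes moved too, to -0.14 and -0.07. In all genes, 4324 were higher and 4265 lower, and 3217 and 5879 with library totals. Library totals changed the sign of 10 of the 66 genes, none over 0.12 in size as reported; among them Hspa4 (-0.11) was then called lower and Hspa8 (-0.0152) lost its call. Leaving out 1 library gave 22 to 27 members higher, 14 to 20 lower (14 without c-FOS replicate 2), a median of 0.03 to 0.08 and 7179 to 8878 genes called in all, against 8589; the lone library of a group is then assumed to vary like the others. DESeq2 called 22 members higher and 15 lower. With the replicate number as a block, 25 were higher and 20 lower; same-numbered libraries did not deviate together (correlation -0.07), so the numbers were not taken to pair them, and the calls of Dnajc16 and Dnajc19 were lost. With 2 libraries a group, and for genes under about 2 CPM such as Dnajb3 and Dnajc5b, small differences are not resolved.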
